A study of Mus musculus with 4 samples.

Results

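Furin, Pcsk5, Pcsk6 and Pcsk7 are genes for proprotein convertases, and their transcripts were measured by RNA‐seq in mouse embryonic stem cells (mESCs) and trophoblast stem cells (TSCs). The 4 genes were taken by name from the 37620 gene identifiers of the count tables, and the rule sets no threshold on their levels. There were 4 samples, 1 per group, so no difference below has a replicate check, and every interval covers counting error only. The mESCs were of the R1 line and were kept for 2 days in serum‐containing medium without feeder cells, in 3 conditions. In 2i−L, labelled 2i, GSK3 was inhibited with 3 µM CHIR99021 and MEK with 1 µM PD0325901, as in all mESC groups, and no LIF was added. In 2iJ, labelled 2i‐Jaki, a JAK inhibitor was present as well at 2 µM, which blocks signaling from the LIF receptor. In 2iJ+B−A, labelled 2i‐Jaki‐BMP‐Alk5i, 10 ng/ml BMP4 and 10 µM of an ALK5 inhibitor were added to 2iJ. The TSCs were of the F4 line and carry the same day label, and their medium is not given in the labels. Each mESC group thus stands on 1 culture of 1 line, and the comparison of TSCs with mESCs is also one between cell lines and media.

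Proprotein convertases are calcium‐dependent serine proteases of the secretory pathway, related to bacterial subtilisin and yeast kexin. They cut precursor proteins after paired or clustered basic residues, most often after Arg‐X‐Lys/Arg‐Arg, and so release mature hormones, growth factors, receptors and adhesion molecules. Furin cycles between the trans‐Golgi network and the cell surface and is made in nearly all cells. PC5, the product of Pcsk5, and PACE4, the product of Pcsk6, are secreted or held at the cell surface through their cysteine‐rich tails, and PC7, the product of Pcsk7, is a membrane‐bound and more distant relative. In the early mouse embryo, Furin and PACE4 from the extraembryonic ectoderm, the tissue that TSCs correspond to, cleave the Nodal precursor made by the epiblast, the tissue closest to mESCs.

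The cut site that these enzymes read was looked for in the precursors of the TGF‐β family, the ligands that BMP4 and the ALK5 inhibitor act beside. Of 24 ligand genes listed, 14 (58.3%) encoded Arg, any residue, Lys or Arg, and Arg ending between 100 and 150 residues before the C terminus, where the mature ligand starts. The same was found for 642 of 19151 genes (3.35%) whose longest complete coding sequence in the annotation was long enough to hold this window. The sequences of 5 ligands whose transcripts are described further on are printed because they show the substrate side of these enzymes within the pathway varied here. Each is the coding strand, 5′ to 3′, of the NCBIM37 transcript, with the 4 codons of the match in capitals.
Nodal: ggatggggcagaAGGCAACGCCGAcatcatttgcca
Bmp4: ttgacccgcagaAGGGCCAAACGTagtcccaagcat
Gdf3: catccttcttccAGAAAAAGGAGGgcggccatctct
Tgfb1: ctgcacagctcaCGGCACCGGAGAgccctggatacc
Tgfb2: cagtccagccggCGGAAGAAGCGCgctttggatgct
They lie in coding exons at chr10:60886242-60886277 (Nodal, plus strand), chr14:47003873-47003908 (Bmp4, minus), chr6:122556657-122556692 (Gdf3, minus), chr7:26482242-26482277 (Tgfb1, plus) and chr1:188454503-188454538 (Tgfb2, minus). The match is followed by 110 residues in Nodal, 116 in Bmp4, 114 in Gdf3, and 112 in Tgfb1 and in Tgfb2. The 10 ligands without a match, such as Bmp7, Bmp8a, Bmp8b, Lefty1 and Lefty2, lack these codons in that window, and shorter basic sites were not searched.

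The labels were first checked against marker genes. Counts on genes ranged from 33913984 to 36964392 per sample, and the detection floor of 3 counts equals 0.07986 to 0.09021 CPM (counts per 1000000 of the TMM‐scaled library). The 5 ES cell markers listed summed to 3410, 2984, 2076 and 528.1 CPM in 2i−L, 2iJ, 2iJ+B−A and TSCs, and the 7 TSC markers to 175.7, 170.5, 345.4 and 1362 CPM. Elf5, which defines TSCs, had 298.3 CPM in TSCs and at most 0.1331 CPM in the mESC samples. Hand1, Esx1, Cdx2 and Gata3 were also raised in 2iJ+B−A (103.5, 72.8, 33.62 and 19.09 CPM). Eomes and Tfap2c went the other way, from 10.66 to 2.742 CPM and from 141.8 to 113.5 CPM between 2iJ and 2iJ+B−A. The 8 fibroblast markers, which would mark carried‐over feeder cells, summed to 48.02, 41.0, 30.37 and 7.691 CPM, and Col1a2, Dcn and Lum were at 0 counts in TSCs. Of these list sums, that of the TSC markers has the same order of groups as the Furin level, although its genes did not all share it. In RNA from whole cultures, fewer cells of a type and less RNA per cell cannot be told apart.

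Furin and Pcsk6 both had more transcript in 2iJ+B−A and in TSCs than in either of the other mESC samples. Furin was highest in TSCs and differed most of the members between TSCs and 2iJ, while Pcsk6 stood at nearly the same level in 2iJ+B−A and TSCs. Pcsk7 had a narrower range of levels than Furin and Pcsk6, and Pcsk5 had few counts, from 11 to 68. All 4 members passed the filter of at least 1 CPM in at least 1 sample, as did 14263 genes in all, but Pcsk5 passed it through the 2iJ+B−A sample alone.

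Furin (ENSMUSG00000030530) lies on the minus strand of chromosome 7, at chr7:87533471-87550322 of NCBIM37. Its level was 19.4 CPM in 2i−L (644 counts; 95% Poisson interval 17.9 to 20.9), 16.8 CPM in 2iJ (577 counts; 15.5 to 18.2), 30.8 CPM in 2iJ+B−A (1156 counts; 29.0 to 32.6) and 76.2 CPM in TSCs (2674 counts; 73.3 to 79.1). The intervals of 2iJ+B−A and TSCs lie above those of 2i−L and 2iJ and apart from each other. Those of 2i−L and 2iJ overlap, which does not decide their order. The interval of the log2 ratio of 2iJ to 2i−L, defined further on, was −0.36 to −0.04.

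Pcsk6 (ENSMUSG00000030513), for PACE4, lies on the plus strand of the same chromosome at chr7:73007057-73195220. It had 69.5 CPM in 2i−L (2312 counts; 66.7 to 72.4), 66.1 CPM in 2iJ (2268 counts; 63.4 to 68.8), 119 CPM in 2iJ+B−A (4465 counts; 115 to 122) and 125 CPM in TSCs (4397 counts; 122 to 129). These values formed a lower pair, 2i−L and 2iJ, and a higher pair, 2iJ+B−A and TSCs, with overlapping intervals inside each pair. Overlap does not decide the order inside a pair. The interval of the log2 ratio was −0.16 to 0.01 for 2iJ to 2i−L, and 0.02 to 0.14 for TSCs to 2iJ+B−A.

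Pcsk7 (ENSMUSG00000035382), for PC7, lies at chr9:45714652-45737775 on the plus strand. Its levels were 14.6 CPM in 2i−L (486 counts; 13.3 to 16.0), 13.4 CPM in 2iJ (459 counts; 12.2 to 14.7), 20.1 CPM in 2iJ+B−A (756 counts; 18.7 to 21.6) and 17.6 CPM in TSCs (618 counts; 16.2 to 19.1). Unlike Furin and Pcsk6 it was not highest in TSCs. The intervals of 2iJ+B−A and TSCs overlap, which does not decide their order. The interval of the log2 ratio of TSCs to 2iJ+B−A was −0.34 to −0.04, for counting error only. The first and last exons of Pcsk7 overlap genes on the opposite strand, by 326 bases with Rnf214 and by 65 with Tagln, and 277 and 16 of its 50‐base words are shared with them. Without regard to strand, Pcsk7 counts were 480, 449, 739 and 595 in the 4 groups, so the overlap removed few reads.

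Pcsk5 (ENSMUSG00000024713), for PC5, lies at chr19:17507883-17912122 on the minus strand. It had 0.331 CPM in 2i−L (11 counts; 0.165 to 0.592), 0.728 CPM in 2iJ (25 counts; 0.471 to 1.08), 1.81 CPM in 2iJ+B−A (68 counts; 1.41 to 2.30) and 0.627 CPM in TSCs (22 counts; 0.393 to 0.949). The interval of 2iJ+B−A lies above those of the other 3 samples, but Pcsk5 passed the filter through 2iJ+B−A alone, so nothing is read from this. The intervals of the other 3 samples overlap, which does not decide their order. The interval of the log2 ratio of 2iJ to 2i−L was 0.03 to 1.02. For Furin, Pcsk5 and Pcsk6, 0 of the 50‐base words occurred in the coding transcripts of another gene. Pseudogenes and non‐coding genes were not searched.

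**Figure D1:**
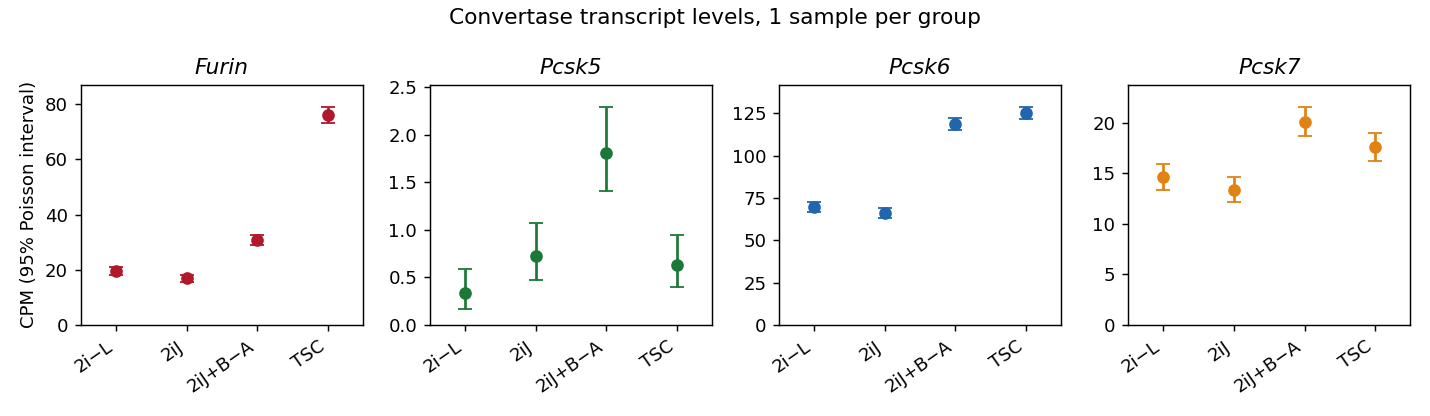
Level of each convertase in the 4 groups, 1 sample each. The vertical axis of each panel is CPM and starts at 0, points are the measured levels, and bars are 95% Poisson intervals of the count. Furin reaches 76.2 CPM in TSCs, Pcsk6 forms a lower and a higher pair, and Pcsk5 stays below 2 CPM in every sample.

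To compare the members with each other, counts were divided by the length of the longest coding transcript of each gene (RPKM, which is CPM per 1000 bases). Pcsk6 had the highest level per length in every sample, with 16.5, 15.7, 28.2 and 29.7 RPKM in 2i−L, 2iJ, 2iJ+B−A and TSCs. Furin came next with 4.47, 3.88, 7.10 and 17.6 RPKM, and Pcsk7 had 3.86, 3.53, 5.32 and 4.65 RPKM. Furin and Pcsk7 had overlapping intervals in 2i−L and in 2iJ. Overlap alone does not decide their order there, and no interval of the ratio between these genes was made. Pcsk5 was last with 0.0541, 0.119, 0.296 and 0.103 RPKM.

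The order of Furin and Pcsk7 also depended on the length used. With all annotated exons in place of the longest coding transcript, which for Furin is 9178 against 4332 bases, Furin was at 2.11, 1.83, 3.35 and 8.30 RPKM and Pcsk7 at 3.86, 3.53, 5.32 and 4.65, so that Pcsk7 stood above Furin in the 3 mESC samples and below it in TSCs. The length was changed after seeing the data. Pcsk6 remained first and Pcsk5 last with either length.

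Summed over the members, convertase transcript per length was 24.9 RPKM in 2i−L, 23.2 RPKM in 2iJ, 40.9 RPKM in 2iJ+B−A and 52.1 RPKM in TSCs. Pcsk6 made up 66.3%, 67.6%, 68.9% and 57.1% of it, and Furin 18%, 16.7%, 17.3% and 33.8%. The share of Pcsk7 was 15.5%, 15.2% and 13% in the mESC groups and 8.93% in TSCs, and that of Pcsk5 was at most 0.723%. With all annotated exons as the length, the share of Furin was 9.37%, 8.67%, 9.04% and 19.4% and that of Pcsk6 73.3%, 74.2%, 76.1% and 69.5%, so the size of the Furin share depends on the length, and with either length it was largest in TSCs.

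**Figure D2:**
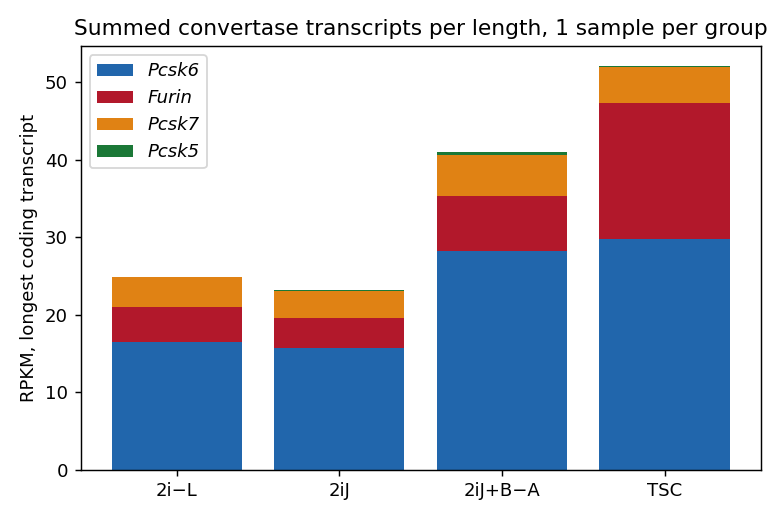
Convertase transcript per length in each group, 1 sample each. Bar height is RPKM on the longest coding transcript, stacked by gene from 0. The sum is 24.9, 23.2, 40.9 and 52.1 RPKM from 2i−L to TSCs, and the Furin part is tallest in TSCs.

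The first comparison is of 2iJ with 2i−L, which differ by the JAK inhibitor. Differences are given as log2 ratios after adding 0.5 CPM to both levels, with 95% Clopper–Pearson intervals, and a gene was called at a log2 ratio of 1 or more in either direction, which is 2‐fold. Between 2iJ and 2i−L, 0 of the 4 members were called, beside 1.23% of all 14263 genes called higher and 0.918% called lower. The log2 ratio was −0.20 for Furin (interval −0.36 to −0.04), −0.07 for Pcsk6 (−0.16 to 0.01) and −0.12 for Pcsk7 (−0.30 to 0.06). Pcsk5 had 0.56 (0.03 to 1.02) on 25 and 11 counts, and the plain ratio of its CPM was 2.20. The member median was −0.10, and that of all genes was 0.01.

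The comparison of 2iJ+B−A with 2iJ shows the members when BMP4 is supplied and ALK5, a receptor kinase for TGF‐β that the inhibitor blocks along with the Nodal and Activin receptor kinases, is shut off. All 4 members were higher in 2iJ+B−A. On this scale none reached 2‐fold, although the plain CPM ratio of Pcsk5 was 2.49, so 0 of 4 were called, beside 5.81% of all genes called higher and 3.17% called lower. The log2 ratio was 0.85 for Furin (interval 0.71 to 1.00), 0.84 for Pcsk6 (0.77 to 0.92), 0.91 for Pcsk5 (0.45 to 1.35) and 0.57 for Pcsk7 (0.41 to 0.74). With the threshold lowered to 1.5‐fold, 3 of 4 members were called higher beside 11.9% of all genes, and Pcsk7 fell just short. Pcsk5 was among these 3 and had passed the filter only through 2iJ+B−A.

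Furin, Pcsk6 and Pcsk7 thus had the same direction in this comparison, at the 92.5, 92.3 and 87.7 percentile of the 14263 genes. Pcsk5 lay at the 93.2 percentile, but it passed the filter only through 2iJ+B−A, so nothing is read from its direction. The median log2 ratio of the 4 members, Pcsk5 included, was 0.85 against −0.002 for all genes. The intervals of Furin, Pcsk5 and Pcsk6 overlap, and that of Pcsk7 lies below that of Pcsk6. Compared with 2i−L, the log2 ratio of 2iJ+B−A was 0.65 for Furin, 0.77 for Pcsk6, 0.45 for Pcsk7 and 1.48 for Pcsk5. The last is past 2‐fold, as for the 7.93% of all genes called higher, but Pcsk5 passed the filter only through its high value in 2iJ+B−A, so nothing is read from that call. That comparison shares its first sample with the one before.

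In TSCs compared with 2iJ, the members had differences of unlike size. Furin had a log2 ratio of 2.15 (interval 2.02 to 2.28), a 4.53‐fold difference in CPM, and was the only member called of 4, beside 19.4% of all genes called higher and 17.6% called lower. Pcsk6 had 0.92 (0.85 to 0.99), just short of 2‐fold, and Pcsk7 0.39 (0.21 to 0.56). Pcsk5 had −0.12 (−0.62 to 0.38), which does not separate the samples. At 1.5‐fold, Furin and Pcsk6 were called beside 28.9% of all genes. Furin stood at the 93.4 percentile of all genes and Pcsk6 at the 78.9. The member median was 0.65, and that of all genes was 0.00. With 2i−L as the other sample, Furin had a log2 ratio of 1.95 and was again the one member called, beside 19.4% of all genes called higher.

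Between TSCs and 2iJ+B−A, Furin was called higher and the ratio of Pcsk5 was past 2‐fold lower, beside 16.4% of all genes called higher and 16.2% called lower. The log2 ratio was 1.29 for Furin (interval 1.20 to 1.39) and −1.04 for Pcsk5 (−1.46 to −0.57). Pcsk6 had 0.08 (0.02 to 0.14) and Pcsk7 −0.19 (−0.34 to −0.04). The median of the members was −0.06 and that of all genes 0.00. The ratio of Pcsk5 rests on 22 and 68 counts and is taken against the sample that alone brought it past the filter, so nothing is read from it. The comparisons with 2iJ and with 2iJ+B−A share the TSC sample.

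**Figure D3:**
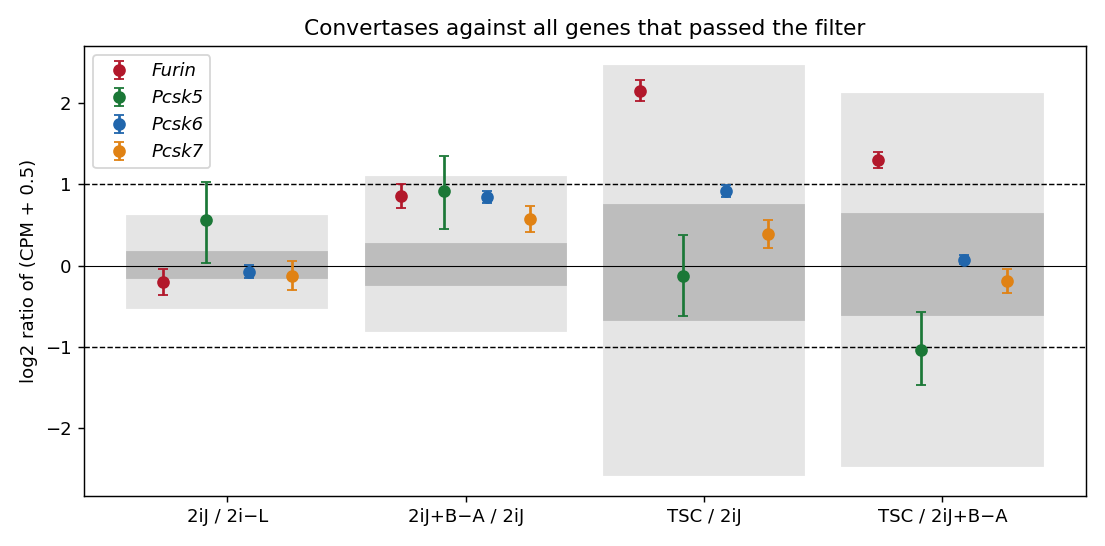
Log2 ratio of (CPM + 0.5) of each convertase in 4 comparisons, with 95% Clopper–Pearson intervals. Pale grey spans the 5th to 95th percentile and dark grey the 25th to 75th percentile of the 14263 genes, and dashed lines mark the 2‐fold call. The 4 members lie between 0.57 and 0.91 in 2iJ+B−A over 2iJ, and between −0.12 and 2.15 in TSC over 2iJ.

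The genes with the most similar profile over the 4 samples were sought for each member, as the smallest root mean square difference of centred log2 levels among genes with a mean of at least 1 CPM. For Furin these were Btbd1 (0.0465), Tpcn1 (0.0635) and Lrp10 (0.0664), of 13261 genes. Lrp10, a membrane receptor of the LDL receptor family, had 20.3, 19.1, 30.9 and 78.0 CPM, close to Furin itself. For Pcsk6 they were 5330426P16Rik (0.0259), Panx1 (0.0371) and Bag2 (0.0432), for Pcsk7 Zfp777 (0.0260), Osbpl8 (0.0287) and Mgat2 (0.0294), and for Pcsk5 Olfml2b (0.0540), Tmem150a (0.0642) and Gm12824 (0.0763). Among the members themselves, Pcsk6 and Pcsk7 were closest at 0.234, and Furin and Pcsk5 farthest at 0.940. For Pcsk6, 604 genes were closer than Pcsk7, so no member had another member as its nearest profile. With 4 points that share their libraries, such likeness is a description.

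Genes within 50 kb of each member were read to see whether a difference extended along the chromosome. Fes, a gene for a cytoplasmic tyrosine kinase, starts 639 bases beyond the 3′ end of Furin on the same strand, and had 1.20, 0.961, 2.58 and 3.33 CPM (40, 33, 97 and 117 counts) over the groups from 2i−L to TSCs. Against 2iJ its log2 ratio was 1.08 in the 2iJ+B−A sample and 1.39 in TSCs. Fes was thus raised in the same samples as Furin, at a far lower level, and whether reads past the end of Furin contribute to it was not tested. Man2a2, for a Golgi mannosidase, 17399 bases from Furin, had 0.20 and 1.35 in the same comparisons. The remaining neighbours of Furin that passed the filter, Unc45a, Hddc3 and Blm, had log2 ratios from −0.58 to 0.82 in TSCs.

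The neighbours of the other members had a mixed pattern. Rfk, beside Pcsk5, had 0.54 in 2iJ+B−A and −0.43 in TSCs, and Snrpa1 and H47, beside Pcsk6, had −0.04 and 0.25 in 2iJ+B−A and −0.69 and 0.41 in TSCs. Beside Pcsk7, Bace1 had a log2 ratio of 2.03 in TSCs and Tagln, a smooth muscle actin‐binding protein gene, −6.09, from 97.7 CPM in 2iJ to 0.940. Those of Rnf214, Sidt2, Pafah1b2 and Gm16536 lay between 0.27 and 0.96, and Pcsk7 was at 0.39. In 2iJ+B−A the neighbours of Pcsk7 had log2 ratios from −0.31 (Gm16536) to 0.62 (Sidt2), and Sidt2 was close to the 0.57 of Pcsk7.

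**Figure D4:**
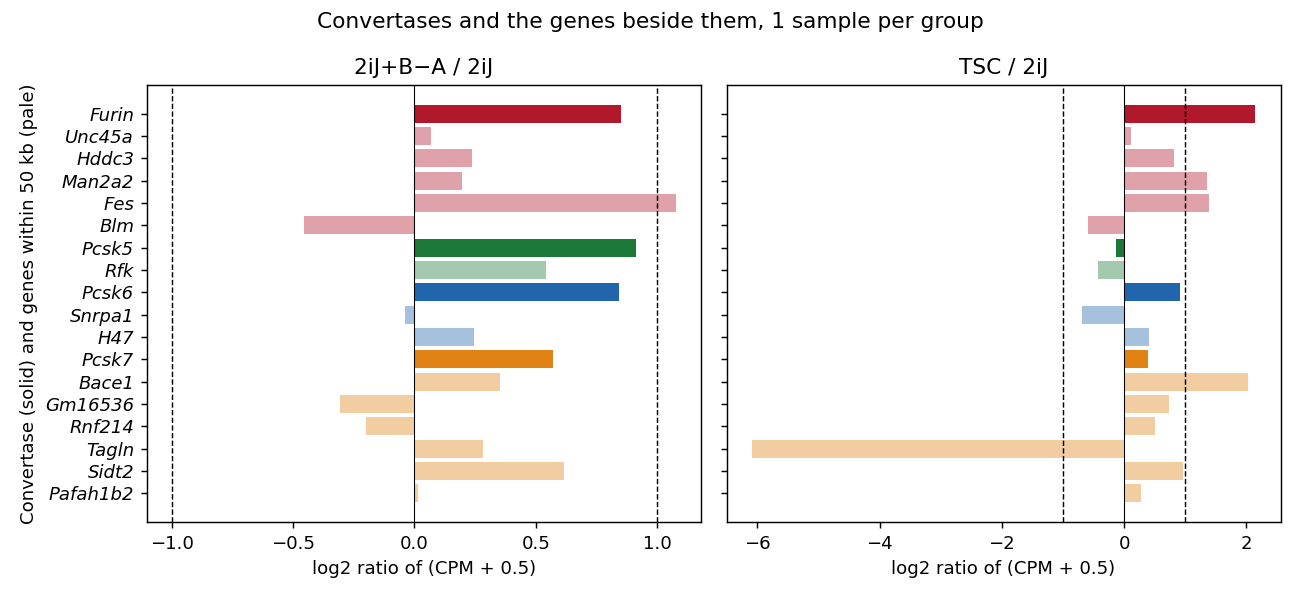
Log2 ratio of (CPM + 0.5) of each convertase (solid bars) and of the genes within 50 kb that passed the filter (pale bars of the same colour), for 2iJ+B−A over 2iJ on the left and TSC over 2iJ on the right, 1 sample per group. Dashed lines mark the 2‐fold call. Fes follows Furin in both panels, while Tagln and Bace1 beside Pcsk7 point in opposite directions in TSCs.

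The 250 bases before the 5′‐most annotated start of each member were read from NCBIM37, to show how unlike the start regions of the compared genes are. They had 50.4% G and C for Furin, 64.0% for Pcsk5, 82.8% for Pcsk6 and 80.0% for Pcsk7, around a median of 54.0% over 22375 protein coding genes. Furin has several annotated starts that gene counts do not separate, and this window belongs to the 5′‐most one. The windows of Furin (chr7:87550323-87550572, minus strand) and Pcsk6 (chr7:73006807-73007056, plus strand) are printed 5′ to 3′, with matches to the motifs named next in capitals.
Furin: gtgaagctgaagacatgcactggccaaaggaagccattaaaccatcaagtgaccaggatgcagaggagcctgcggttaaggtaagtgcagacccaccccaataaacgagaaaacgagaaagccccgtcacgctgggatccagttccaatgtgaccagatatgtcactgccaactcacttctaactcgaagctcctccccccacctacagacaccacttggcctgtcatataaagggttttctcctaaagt
Pcsk6: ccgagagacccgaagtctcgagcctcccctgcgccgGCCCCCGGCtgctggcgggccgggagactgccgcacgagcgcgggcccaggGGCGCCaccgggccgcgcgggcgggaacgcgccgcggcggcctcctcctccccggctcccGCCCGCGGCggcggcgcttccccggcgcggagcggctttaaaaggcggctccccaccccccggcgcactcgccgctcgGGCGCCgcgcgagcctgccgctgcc
Searched on both strands were GGCGCC, a site of the BMP‐activated SMAD proteins, GTCTAGAC, the SMAD palindrome, GCCNNNGGC, the site of AP‐2 factors such as Tfap2c, and TTCNNNGAA, the STAT site, none of which overlapped another in these windows. GGCGCC occurred 2 times in the Pcsk6 window, 1 time each in those of Pcsk5 and Pcsk7, and 0 times in that of Furin, and 11.1% of all 22375 windows held it. GCCNNNGGC occurred 2 times in the Pcsk6 window and 0 times in the others (14.8% of all windows). GTCTAGAC (0.143% of all windows) and TTCNNNGAA (6.83%) had 0 matches in the 4 members. The windows with GGCGCC are those richer in G and C, and how far base composition alone gives such matches was not tested.

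By protein sequence translated from the longest coding transcript, PC5 and PACE4 were the closest pair, with 59.4% identical residues in a local alignment. Furin shared 55.4% with PACE4 and 54.5% with PC5, and PC7 shared 42.9% to 46.2% with the others. The precursors have 793 residues for Furin, 1877 for PC5, 959 for PACE4 and 770 for PC7. The 2 closest proteins came from the most and the least abundant transcript.

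Other convertases described here are neuroendocrine and germ cell enzymes and the Golgi protease of Mbtps1. Pcsk1, which processes prohormones in endocrine cells, had 7.79, 7.60, 11.8 and 0.0570 CPM from 2i−L to TSCs, where it had 2 counts, with a log2 ratio of −3.86 in TSCs against 2iJ (interval −4.01 to −3.50). It was thus the reverse of Furin between TSCs and mESCs. Pcsk4, known from germ cells, had 1.14, 1.31, 1.41 and 5.67 CPM, and its log2 ratio in TSCs against 2iJ was 1.77 (1.40 to 2.13).

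Mbtps1, whose product site‐1 protease activates sterol‐regulated transcription factors, had 316, 331, 294 and 413 CPM and no call in any comparison. Pcsk2, a partner of Pcsk1 in neuroendocrine cells, had at most 7 counts.

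Of 4 listed convertase inhibitors, 3 passed the filter. Pcsk1n, for proSAAS, which inhibits the Pcsk1 product, had 0.812, 0.699, 0.745 and 34.5 CPM, a log2 ratio of 4.87 in TSCs against 2iJ (interval 4.50 to 5.22). TSCs were therefore the sample with the most of this inhibitor and almost no Pcsk1. Gbp2, an interferon‐induced GTPase that lowers Furin activity, had 4.36, 7.92, 9.40 and 2.25 CPM, and its log2 ratio in TSCs was −1.61 (−1.93 to −1.30). Serpinb8, a serpin that binds Furin, had 0.902, 1.02, 1.12 and 1.51 CPM and was not called. The median log2 ratio of the 3 was 0.09 in 2iJ+B−A and 0.40 in TSCs, each against 2iJ.

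The sorting machinery that keeps Furin in the trans‐Golgi network was read from a list of 9 genes. Timp2, a metalloproteinase inhibitor and no sorting protein, alone was called in 2iJ+B−A against 2iJ, with 4.37 and 9.40 CPM (log2 ratio 1.02). That made 1 of 9 called higher and 0 lower, beside 5.81% and 3.17% of all genes, and the list median was 0.09. Pacs1, which retrieves phosphorylated Furin to the Golgi, and Flna, whose product tethers Furin at the cell surface, were called lower in TSCs, with log2 ratios of −1.28 and −1.23 and levels of 25.6 and 290 CPM. These were 2 of 9, beside 17.6% of all genes called lower, and the median of the list in TSCs was −0.08. Gga2 and Ap1b1, for adaptor proteins of the trans‐Golgi network, were instead highest in TSCs, at 471 and 117 CPM, without a call.

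Many TGF‐β family ligands are known convertase substrates, and 16 of the 24 listed passed the filter, while cleavage was not measured here. In 2iJ+B−A against 2iJ, 6 were called higher and 4 lower, beside 5.81% and 3.17% of all genes, with a median log2 ratio of 0.79, which stayed at 0.79 with Lefty2 at its bound. Bmp2, among the 6, and Tgfb3, which enters the median, passed the filter only through 2iJ+B−A, so nothing is read from their direction. In TSCs against 2iJ, 4 were called higher and 5 lower, beside 19.4% and 17.6% of all genes, with a median of 0.28. Between 2iJ and 2i−L, 0 were called higher and 1 lower, beside 1.23% and 0.918% of all genes, with a median of 0.08. The 1 called lower was Inhbb, on 16 counts in 2iJ and 70 in 2i−L.

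Nodal, which maintains the epiblast and is cleaved by Furin and PACE4, had 89.4, 125, 46.1 and 6.69 CPM. Against 2iJ its log2 ratio was −1.43 (interval −1.52 to −1.35) with BMP4 and the ALK5 inhibitor, and −4.13 (−4.31 to −3.95) in TSCs. Nodal transcript was therefore lowest where Furin transcript was highest. Gdf3, which acts with Nodal, had 66.7, 79.4, 49.7 and 0.0570 CPM, with 2 counts in TSCs and a log2 ratio of −7.16 (−7.30 to −6.82).

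Lefty1 and Lefty2, secreted Nodal antagonists induced by Nodal itself, had 128 and 265 CPM in 2iJ. In 2iJ+B−A, Lefty1 had 14 counts and Lefty2 0, which was at least 3314‐fold lower with 3 counts as the floor. They are near‐identical genes, so their counts may have been split or left out. Gdf15 was the fourth ligand called lower, with 3.03 and 0.958 CPM (log2 ratio −1.27).

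Bmp4, Bmp8a and Bmp8b had the opposite direction to Nodal. Bmp4 had 5.50, 5.47, 17.5 and 25.5 CPM, with log2 ratios against 2iJ of 1.59 (interval 1.37 to 1.82) and, in TSCs, 2.12 (1.91 to 2.34). The added BMP4 was protein, so these reads come from the cells' own gene. Bmp8b, a BMP of the extraembryonic ectoderm, had 2.04, 2.97, 16.5 and 117 CPM, with log2 ratios of 2.29 and 5.08, and Bmp8a had 1.31 and 2.29. Bmp8a and Bmp8b are close copies, and how reads were divided between them was not tested. Bmp4 and Bmp8b thus had the order of Furin, with 2iJ+B−A between 2iJ and TSCs, and all 3 genes were read from the same libraries.

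Bmp2 was called higher in 2iJ+B−A (log2 ratio 1.64, from 0.932 to 3.97 CPM), but in TSCs it had 0.228 CPM, with a log2 ratio of −0.98 against 2iJ. That call was to the sample that alone brought Bmp2 past the filter, so nothing is read from it. Inhbb, for the activin B subunit, had 2.10, 0.466, 2.77 and 1.42 CPM, so that 2iJ+B−A exceeded 2iJ by a log2 ratio of 1.76, and Gdf11 had 3.73 and 8.65 CPM (1.11). Bmp7 (0.70), Tgfb3 (0.88) and Inha (0.52) had smaller log2 ratios in 2iJ+B−A.

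The TGF‐β genes differed among themselves. Tgfb1, whose product is a known Furin substrate, had 4.33, 3.35, 2.71 and 15.8 CPM and a log2 ratio of 2.08 in TSCs against 2iJ (interval 1.82 to 2.34). Tgfb2 had 7.76, 13.0, 26.4 and 0.826 CPM, with 0.99 in 2iJ+B−A (0.84 to 1.15) and −3.35 in TSCs (−3.70 to −2.98). Tgfb1 was therefore highest in the sample with the most Furin, and Tgfb2 lowest.

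**Figure D5:**
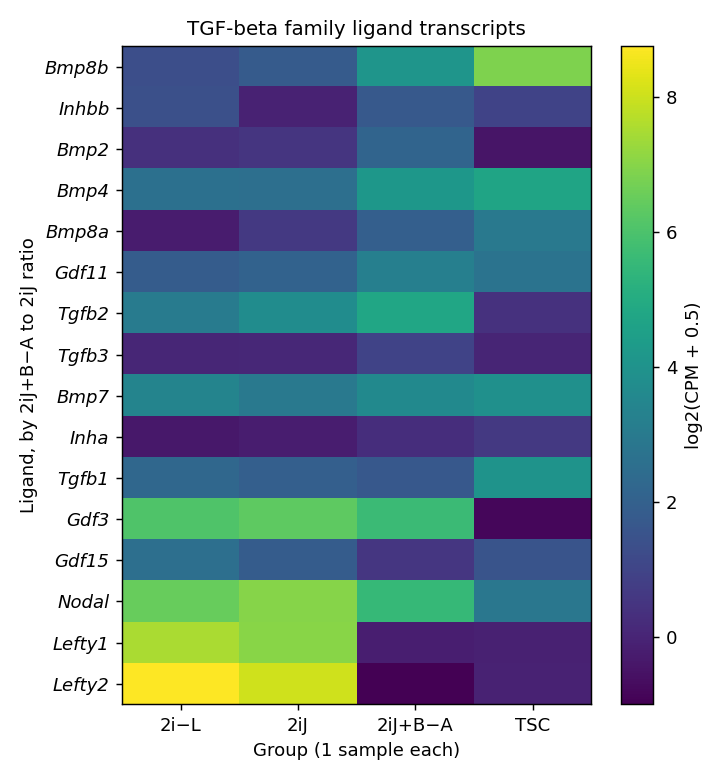
Transcript level of the 16 TGF‐β family ligands that passed the filter, as log2(CPM + 0.5), in the 4 groups (columns, 1 sample each). Rows are ordered by their log2 ratio between 2iJ+B−A and 2iJ, from Bmp8b at 2.29 to Lefty2, which had 0 counts in 2iJ+B−A. Bmp8b, Bmp4 and Tgfb1 are brightest in TSCs, and Nodal, Gdf3 and both Lefty genes are brightest in 2i−L and 2iJ.

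Other known substrates of convertases were read from a list of 33, of which 32 passed the filter. In 2iJ+B−A against 2iJ, 5 were called higher and 2 lower, beside 5.81% and 3.17% of all genes, with a median log2 ratio of 0.28. In TSCs 12 were called higher and 8 lower, beside 19.4% and 17.6% of all genes, with a median of 0.38. Among receptors, Insr, for the insulin receptor, had 19.8 CPM in 2iJ, 22.5 with BMP4 and the ALK5 inhibitor, and 95.6 in TSCs (log2 ratio 2.24), and Igf1r had 25.8, 33.7 and 55.0 CPM (1.08). Both receptors are known to be cut into their chains by Furin, and both were highest in TSCs. Other receptors on the list were not, as Met had 9.81, 33.6 and 15.9 CPM and Notch2 69.0, 52.8 and 33.1 CPM in the same samples. Igf2, a growth factor that signals through both Igf1r and Insr, had 134, 1297 and 4354 CPM.

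Among adhesion molecules, Itga3 had 29.3, 69.5 and 155 CPM in 2iJ, 2iJ+B−A and TSCs, and Itga6 102, 154 and 264 CPM. Cdh1, for E‐cadherin, had 695, 1011 and 1577 CPM, while Cdh2, for N‐cadherin, had 8.71, 11.5 and 1.08 CPM. Itga3, Itga6 and Cdh1 were thus highest in TSCs and higher in 2iJ+B−A than in 2iJ, as Furin was. Itgav, another integrin chain on the list, had 59.9, 31.5 and 186 CPM in the same samples. It was also highest in TSCs, but unlike Furin it was lower in 2iJ+B−A than in 2iJ. Of the proteases that need convertases for activation, Adam9, Adam10 and Adamts4 were called higher in TSCs (log2 ratios 1.31, 1.12 and 1.40), as was Bace1, while Mmp11 (−2.23) and Mmp16 (−1.73, on 1 count in TSCs; interval −1.83 to −1.32) were called lower. Adam12, Adam17, Adamts1, Mmp14, Mmp15 and Mmp24 were not called. Sort1, a sorting receptor that is itself cut by Furin, had 23.8, 27.5 and 3.96 CPM and was called lower (−2.44).

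The signaling lists chosen for the pathway show how the samples stood when the members were read. All 6 BMP target genes were called higher in 2iJ+B−A against 2iJ, beside 5.81% of all genes. Their median log2 ratio was 2.31, and Id1 went from 8.01 to 91.6 CPM. Between 2iJ and 2i−L, neither with added BMP4, 3 of 6 (Id2, Id3 and Msx1) were called higher and 0 lower. The shares of all genes there were 1.23% and 0.918%, and the list median was 0.93. In TSCs against 2iJ, 3 of 6 were called higher and 0 lower, beside 19.4% and 17.6% of all genes, with Id2 at 446 CPM. Of the Nodal and Activin pathway genes, Skil (log2 ratio −2.25) and Tdgf1 (−1.85) were called lower in 2iJ+B−A. Tdgf1, for the Nodal co‐receptor Cripto, which is known to bring Furin and PACE4 together with Nodal, had 361, 207, 57.0 and 0.342 CPM.

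Markers of other cell types also differed between the groups, and the lists did not share 1 pattern. The TSC list had 4 of 7 genes called higher and 1 lower in 2iJ+B−A against 2iJ, beside 5.81% and 3.17% of all genes. The primitive endoderm list had 4 of 5 that passed called higher, beside the same 5.81% of all genes. Of these 4, Sox17 passed the filter only through 2iJ+B−A, so nothing is read from its call. The 7 listed endoderm genes summed to 5.59, 5.91, 24.9 and 35.1 CPM, with Afp at 0 to 2 counts. Of 7 markers of differentiated trophoblast, 4 were at 0 counts in 2iJ+B−A and none in TSCs, and their sums were 1.89, 5.82, 28.4 and 7.55 CPM, with Gcm1 alone giving 28.0 CPM in 2iJ+B−A. The 5 mesoderm markers summed to 4.99, 4.72, 3.33 and 25.8 CPM, of which Kdr gave 22.2 in TSCs. The part of such cells in the convertase levels was not tested.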

How the data were processed

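The authors trimmed paired reads of directional poly‐A libraries and counted read pairs per gene with STAR 2.4.2a on NCBIM37, and the submitters' processing notes also name CASAVA 1.8.2 and cutadapt. The deposited files hold unnormalized counts per gene and strand setting for each sample, and the annotation release is not given in the sources used here. STAR counts pairs that map to 1 place, and 6.722% to 7.006% of pairs mapped to several, which lowers genes with close copies. The reverse‐strand count was used, 29.1 to 32.11 times the opposite one, since the kit is directional. Of 37620 identifiers, 37205 were found in the NCBIM37 annotation, and Tfap2c and Syna were found under older symbols through RefSeq.

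TMM factors (0.9692 to 1.035) came from edgeR 4.0.16 in R 4.3.3, and size factors from DESeq2 1.42.0 were an alternative. Other steps used Python 3.11.15, numpy 2.4.6, scipy 1.17.1, pandas 2.3.3, matplotlib 3.10.9 and Biopython 1.88. The filter required 1 CPM in any sample, a pseudocount of 0.5 CPM was used, and the call, the intervals and the floor of 3 counts are as given above. Intervals cover counting error only, and with 1 sample per group no test across cultures was made. Scripts were tested on simulated data. RPKM used coding transcript lengths. Named genes were the members, the other convertases, ligands and inhibitors, called genes and a few examples of the other lists, neighbours within 50 kb and the 3 nearest profiles. Members and lists were chosen with earlier results of these data known. Protein sequences are not printed here, and some listed genes are not reported here. Alternatives were the unstranded count, other scalings, pseudocounts, filters and call rules, and 2i−L as reference.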

Additional observations from a re-analysis of the deposited data

How the results depend on the processing

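No paired analysis was possible because each group holds 1 sample, which also leaves no sample to leave out. The direction of the called member ratios was kept under the unstranded count, DESeq2 size factors, library totals and pseudocounts of 0.1 and 1 CPM, with Furin in TSCs against 2iJ between 2.12 and 2.22, and against 2iJ+B−A between 1.28 and 1.32. Pcsk5, on few counts, ranged from −1.39 to −0.79 in TSCs against 2iJ+B−A and from 0.70 to 1.21 in 2iJ+B−A against 2iJ.

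Members called in 2iJ+B−A against 2iJ went from 0 to 1 (Pcsk5) with a pseudocount of 0.1 CPM and to 1 with 2i−L as reference, and to 3 at 1.5‐fold. The count was 0 with the filter applied without the 2iJ+B−A sample, a choice made after seeing the data, under which Pcsk5 was not tested. In TSCs against 2iJ they went from 1 to 2 at 1.5‐fold. In TSCs against 2iJ+B−A they went from 2 to 1 with a pseudocount of 1 CPM and with a filter of 5 CPM, both by loss of Pcsk5, which had passed the filter only through 2iJ+B−A. When edgeR's exact test was added with an assumed biological coefficient of variation of 0.4, members called in both TSC comparisons went to 0, with adjusted p of 0.0674 and 0.442 for Furin, while at 0.2 the counts stayed at 1 and 2, with 2.96e-06 and 0.00708 for Furin.

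For all genes in 2iJ against 2i−L, 306 called became 652 and 181 with pseudocounts of 0.1 and 1 CPM, 192 with a filter of 5 CPM, 1325 at 1.5‐fold, and 47 and 0 with the exact test at 0.2 and 0.4. In 2iJ+B−A against 2iJ, 1280 became 2944 at 1.5‐fold and 39 at 0.4. In TSCs, 5284 against 2iJ became 8037 and 2410, and 4647 against 2iJ+B−A became 7448 and 1963, in the same order.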
